A study of Fragaria vesca with 12 samples.

Results

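FvH4_4g23530 is a MADS-box gene of the woodland strawberry Fragaria vesca, described in the deposited expression table as the agamous-like MADS-box protein AGL9 homolog and in the peak tables by a match to a MADS-box transcription factor of Fragaria chiloensis. It was taken by its gene identifier and is 1 of 29 MADS-box genes among the 21927 genes listed. The other 28 MADS-box genes, of which 2 carry SEPALLATA-type descriptions, served as its comparison set. It lies on chromosome 4 from 25998776 to 26004694 on the plus strand, 5919 bases in all, in the coordinates of the deposited tables. It is listed with 10 transcripts, the most of any MADS-box gene here, against a median of 1 over all genes.

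AGL9 is the older name of SEPALLATA3 in Arabidopsis, an E class MADS-box factor that joins other MADS-box proteins in tetramers specifying the floral organs. In fleshy fruits, relatives of these genes take part in ripening; the tomato factor RIN binds the promoters of genes for cell wall enzymes, ethylene synthesis and aroma. N6-methyladenosine (m6A) is a methyl mark on adenosines of mRNA that lies mostly near the stop codon and in the 3' UTR, and in Arabidopsis ALKBH10B is an enzyme that removes it.

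Fruit of wild type (WT) and of the Fvalkbh10b mutant was taken at 27 days post anthesis, and the 12 samples formed 4 groups, each of 3 biological replicates, namely input RNA and anti-m6A immunoprecipitated RNA of each genotype. The labels name no allele, line or further treatment and do not say whether achenes were removed from the flesh. RNA levels are FPKM, a fragment count divided by transcript length and library size, for each of the 6 input libraries. The immunoprecipitated libraries entered only through peak lists that pool the replicates, 1 list per genotype.

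The FPKM gave no read numbers, so depth is unknown. Summed FPKM lay at 467174 to 469664 in the WT libraries and at 500726 to 522590 in the mutant libraries, and the median log2 change of all 15571 genes tested was 0.25 towards the mutant. The marker lists of fruit tissues differed between the genotypes in level. Their counts (adjusted p under 0.05 by limma) are read beside 48.3% higher and 19.1% lower over all genes tested, or 30.8% and 32.2% after each library was rescaled to one median. Of the 35 achene and seed markers, 22 were tested, with 6 higher and 13 lower, and their summed level was 707 to 722 FPKM in WT and 469.6 to 503 in the mutant, with 2 of them at 0 throughout each genotype. Of the 53 fruit flesh markers, 30 were tested, with 8 higher and 17 lower, and the summed level was 7804 to 8188 FPKM against 1708 to 1756, with 9 at 0 throughout WT and 4 throughout the mutant. All 29 tested of the 36 green tissue markers were higher, with a summed level of 279.8 to 298 FPKM against 2801 to 2997, and 5 were at 0 throughout WT and 1 throughout the mutant. After rescaling, 4 achene and seed markers were higher and 14 lower. On that scale the counts were 7 and 18 for the flesh markers and 28 and 0 for the green tissue markers. The flesh markers include the expansins and pectate lyases that are also counted further on as ripening target families. The part of these shifts in the results below was not tested. In bulk fruit, a different make-up of tissues and different levels of these genes within a tissue cannot be told apart.

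The RNA of the AGL9 homolog was far lower in mutant fruit. It stood at 180.64, 182.86 and 191.73 FPKM in the WT input libraries and at 53.24, 53.05 and 50.31 FPKM in the mutant input libraries. The mutant libraries all lay below the WT libraries, and the replicates of each genotype were close. Mean levels were 185 ± 5.87 FPKM for WT and 52.2 ± 1.64 FPKM for the mutant (SD, n = 3), a ratio of 3.55 between WT and mutant. On the log2(FPKM + 1) scale it fell by 1.81 ± 0.04 (SE; limma with Benjamini-Hochberg adjustment, adjusted p = 3.38e-10), and it fell by 2.09 once each library was rescaled to one median (adjusted p = 1.39e-10). Permuting the 6 libraries exactly (two-sided) gave p = 0.1, and 3 against 3 libraries cannot give less. The authors' deposited table lists a log2 change of -1.83 with p = 2.93e-06. In bulk fruit, fewer cells expressing the gene and less of its RNA per cell cannot be told apart.

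Despite the fall the gene was still among the more abundant transcripts. By mean FPKM it ranked 298 of 21927 genes in WT, above 98.6% of them, and 1528 in the mutant, above 93%. Its log2 change was the 491st most negative of the 15571 genes tested, so 96.8% of them changed less downward or upward. Over all genes tested, 48.3% were called higher and 19.1% lower (adjusted p under 0.05 by limma), or 30.8% higher and 32.2% lower after rescaling. Requiring a change of at least 2-fold as well left 14% higher and 6.49% lower.

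**Figure D1:**
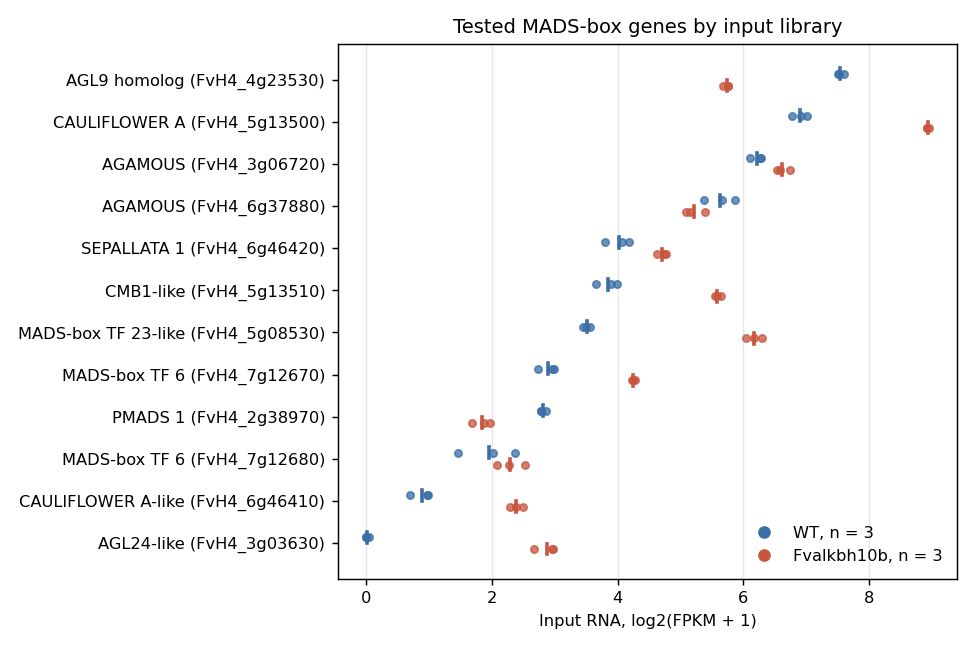
Input RNA of the 12 tested MADS-box genes as log2(FPKM + 1), with 1 point per library, WT in blue, Fvalkbh10b in red and a short bar at each mean of 3 libraries. The AGL9 homolog leads in WT at 180.64 to 191.73 FPKM and lies at 50.31 to 53.24 FPKM in the mutant, where CAULIFLOWER A stands at 480.74 to 494.56 FPKM.

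Among MADS-box genes the AGL9 homolog went from the leading transcript to the fourth. In WT it was followed by a CAULIFLOWER A gene, 2 AGAMOUS genes, SEPALLATA 1, CMB1-like and MADS-box transcription factor 23-like, and within this order only the library ranges of SEPALLATA 1 and CMB1-like overlapped. In the mutant the order in FPKM was CAULIFLOWER A, the AGAMOUS gene FvH4_3g06720, transcription factor 23-like, the AGL9 homolog, CMB1-like, the AGAMOUS gene FvH4_6g37880 and SEPALLATA 1. No library ranges of these mutant neighbours overlapped, although the AGL9 homolog at 50.31 to 53.24 FPKM was close to CMB1-like at 45.55 to 48.75.

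Because a share within one library does not depend on how libraries are scaled, the FPKM of the gene was also set against the sum over all 29 MADS-box genes. The AGL9 homolog took 39.6%, 37.5% and 37.5% of that sum in the WT libraries and 6.32%, 6.24% and 5.77% in the mutant libraries. The shares did not overlap and differed by -32.1 percentage points, from 38.2% ± 1.2 to 6.11% ± 0.299 (SD, n = 3, exact two-sided permutation p = 0.1). The sum itself was larger in the mutant, at 855 ± 15.5 FPKM against 485 ± 27.5 in WT. With the CAULIFLOWER A gene, the largest contributor in the mutant, left out of the sum, the difference in share was -36.3 points. That gene held 23.8% to 24.9% of the sum in the WT libraries and 55.3% to 58.2% in the mutant libraries. Leaving it out raises the share of the AGL9 homolog in both genotypes, by the larger factor in the mutant. The larger difference in points is thus not a larger fold fall.

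**Figure D2:**
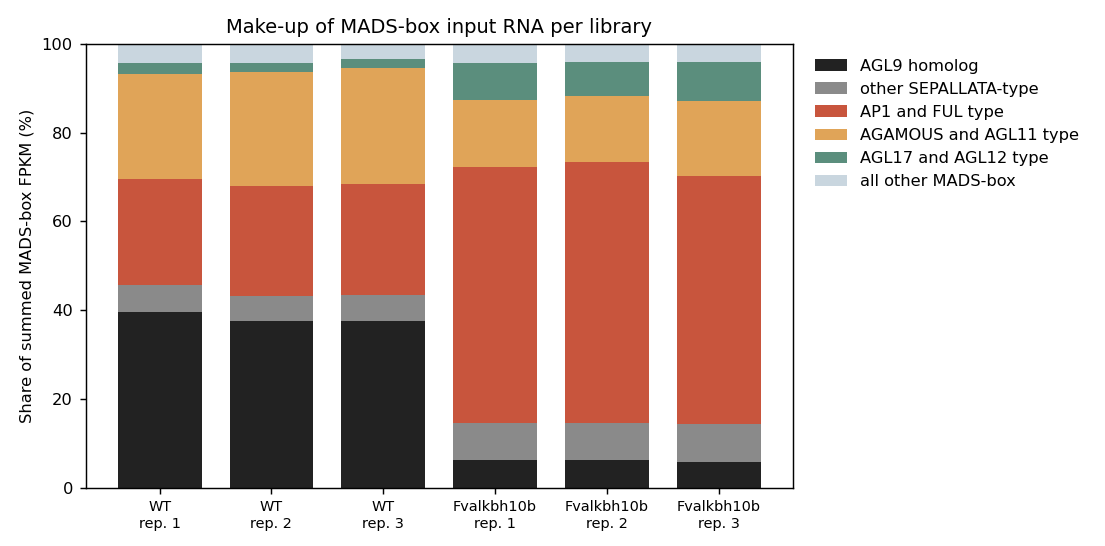
Share of the summed MADS-box FPKM in percent, 1 stacked bar per input library, with the AGL9 homolog in black at the base. The black segment is 37.5% to 39.6% of the bar in WT and 5.77% to 6.32% in Fvalkbh10b, while the segment of AP1 and FUL type genes is larger in the mutant libraries.

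The SEPALLATA-type genes together held 44.1% of MADS-box FPKM in WT and 14.6% in the mutant, the AGL9 homolog alone falling from 38.2% to 6.11%. The AP1 and FUL type genes, named for floral meristem and fruit patterning factors of Arabidopsis, held 24.6% and 57.4%. The AGAMOUS and AGL11 type, which specify carpels and ovules in Arabidopsis, held 25.2% and 15.7%. The B class genes, which specify petals and stamens, held 1.36% and 0.392%, and the AGL17 and AGL12 type held 2.15% and 8.32%.

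The other SEPALLATA-type genes moved the opposite way to the AGL9 homolog. CMB1-like (FvH4_5g13510), named for a carnation MADS-box gene, stood at 11.65, 14.91 and 13.82 FPKM across the WT libraries, against 46.94, 45.55 and 48.75 FPKM across the mutant libraries, and rose by 1.74 ± 0.08 log2 units (SE, limma adjusted p = 5.67e-08). SEPALLATA 1 (FvH4_6g46420) stood at 15.87, 12.94 and 17.15 FPKM across the WT libraries, against 23.67, 25.68 and 26.35 FPKM across the mutant libraries, and rose by 0.69 ± 0.10 (limma adjusted p = 1.52e-04). The genotypes did not overlap in either gene.

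The AGL9 homolog was also set against these relatives within each library. The log2(FPKM + 1) difference between it and each of the 2 genes was taken. Over CMB1-like the AGL9 homolog led by 3.84, 3.53 and 3.70 log2 units in the WT libraries and by 0.18, 0.22 and 0.04 in the mutant libraries. In plain FPKM the AGL9 homolog was thus 12.3 to 15.5 times CMB1-like in WT and 1.03 to 1.16 times in the mutant. Its lead shrank in every mutant library, with a difference between genotypes of -3.55 log2 units. Over SEPALLATA 1 the lead was 3.43, 3.72 and 3.41 log2 units in WT and 1.14, 1.02 and 0.91 in the mutant, a difference of -2.50. In FPKM this was 11.2 to 14.1 times in WT and 1.91 to 2.25 times in the mutant. Neither set of leads overlapped between genotypes, and the exact two-sided permutation p was 0.1 for each of the 2 pairs, and 0.1 after Benjamini-Hochberg adjustment, the smallest value possible. This separation follows from the levels above, where the AGL9 homolog was lower and both relatives higher in every mutant library. The leads therefore give the size of the difference and no separate test.

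Of the 29 MADS-box genes, 12 had a mean of at least 1 FPKM and were tested, and 8 of these rose and 3 fell (adjusted p under 0.05 by limma), beside 48.3% and 19.1% of all genes tested. With at least 2-fold, 6 were higher and the AGL9 homolog was the 1 lower, beside 14% and 6.49% of all genes tested. The median log2 change of the 12 was 1.02, against 0.25 for all genes tested. After rescaling 7 were higher and 3 lower, beside 30.8% and 32.2% of all genes on that scale. The 17 untested MADS-box genes had means of at most 0.907 FPKM and reached at most 2.1 FPKM in any library. Close MADS-box copies may share reads, so levels of similar genes are uncertain to that extent.

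Among the genes that were higher, CAULIFLOWER A (FvH4_5g13500), named for a relative of APETALA1, stood at 108.77, 119.44 and 127.3 FPKM across the WT libraries, against 480.74, 494.56 and 482.56 FPKM across the mutant libraries (log2 change 2.03 ± 0.05, limma adjusted p = 6.40e-10). The largest rise of a MADS-box gene above 5 FPKM in both genotypes was that of transcription factor 23-like (FvH4_5g08530), from 10.4 ± 0.476 to 71.1 ± 6.53 FPKM. An AGL24-like gene (FvH4_3g03630), named for a flowering-time factor of Arabidopsis, was listed at 0, 0.03 and 0 FPKM across the WT libraries, against 6.8, 6.89 and 5.34 FPKM across the mutant libraries. Transcription factor 6 (FvH4_7g12670) went from 6.46 ± 0.721 to 18.1 ± 0.28 FPKM and CAULIFLOWER A-like (FvH4_6g46410) from 0.853 ± 0.202 to 4.26 ± 0.39. The second transcription factor 6 gene (FvH4_7g12680) did not pass, at 3 ± 1.2 FPKM for WT and 3.94 ± 0.751 FPKM for the mutant (log2 change 0.34 ± 0.22, limma adjusted p = 0.19).

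The pair of AGAMOUS genes was closest to the AGL9 homolog in WT level after CAULIFLOWER A. FvH4_3g06720 stood at 67.46, 76.83 and 75.46 FPKM across the WT libraries, against 94.49, 91.16 and 105.51 FPKM across the mutant libraries (log2 change 0.40 ± 0.07, limma adjusted p = 4.86e-04), a rise that became 0.12 with adjusted p = 0.114 after rescaling. FvH4_6g37880 stood at 40.65, 49.29 and 57.28 FPKM across the WT libraries, against 32.81, 34.55 and 40.91 FPKM across the mutant libraries. It fell by 0.43 ± 0.12 (limma adjusted p = 0.00964), but its libraries overlapped and its exact permutation p was 0.2. PMADS 1 (FvH4_2g38970), named for a petunia B class gene, stood at 5.89, 6.27 and 5.87 FPKM across the WT libraries, against 2.22, 2.69 and 2.91 FPKM across the mutant libraries, and it fell by 0.96 ± 0.12 (limma adjusted p = 4.77e-05). Among the 12 tested MADS-box genes these 2 and the AGL9 homolog were the ones called lower, and the AGL9 homolog fell the most.

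The genes next to the AGL9 homolog on chromosome 4 did not all move with it. On its 3' side, the uncharacterized gene FvH4_4g23540 stood at 24.84, 23.31 and 23.69 FPKM across the WT libraries, against 23.37, 24.37 and 21.88 FPKM across the mutant libraries, overlapping throughout (log2 change -0.04 ± 0.06, limma adjusted p = 0.55). After rescaling its change was -0.32 with adjusted p = 0.00242, still far smaller than the -2.09 of the AGL9 homolog on that scale. The next gene, calmodulin-binding transcription activator 4 (FvH4_4g23551), changed by 0.14 ± 0.12 (limma adjusted p = 0.328). On the 5' side, squamosa promoter-binding-like protein 16 (FvH4_4g23520) was at 0.66, 0.72 and 0.68 FPKM across the WT libraries, against 0.04, 0 and 0 FPKM across the mutant libraries, too low to be tested. FvH4_4g23521, which has no description, was at 1.37, 1.44 and 0.97 FPKM against 0.35, 0.24 and 0, also untested.

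The m6A peaks of the AGL9 homolog lay in all 3 annotated regions of the gene and in the same places in both genotypes. In the WT list they were a 5' UTR peak at chr4:25998851-25999375, an exonic peak at chr4:26000576-26002608 and a 3' UTR peak at chr4:26003484-26004571. The mutant list held a 5' UTR peak at chr4:25998826-25999375, an exonic peak at chr4:26000551-26002633 and a 3' UTR peak with the same bounds as in WT. Each WT peak was covered in full by its mutant counterpart, and the WT peaks covered 95.5%, 97.6% and 100% of the mutant peaks. The 5' UTR peak was assigned to transcript 10 of the gene, the exonic peak to transcript 1 and the 3' UTR peak to transcript 5. No single transcript was thus shown to carry all 3. The exonic peak spanned 2033 bases of the genome in WT, longer than 95.9% of the 7167 exonic peaks of that list, and the 3' UTR peak ended 123 bases before the end of the gene.

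Peaks in all 3 regions in both lists were uncommon. They were listed for 393 of the 13137 genes with a peak in both lists, or 2.99%. Of all 29 MADS-box genes, with or without a peak, 1 had them (3.45%), the AGL9 homolog. These shares rest on unlike bases and are not compared. Of the 12 tested MADS-box genes, 10 had a peak in both lists. In the WT list 15 MADS-box genes had 25 peaks, of which 19 were in the 3' UTR, 4 were exonic and 2 were in the 5' UTR. In the mutant list 19 MADS-box genes had 34 peaks, with 19, 6 and 9 in those regions.

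Enrichment is the authors' log2 ratio of immunoprecipitated over input RNA, with 1 value per peak and genotype and no replicate values, so it was not tested between genotypes here. The 5' UTR peak of the AGL9 homolog had an enrichment of 3.01 in WT and 3.41 in the mutant. The exonic peak had 1.52 and 1.74, and the 3' UTR peak 3.06 and 3.66. Within each genotype the 3' UTR peak was the highest of the 3 and the exonic peak the lowest, and every value was higher in the mutant list than in the WT list.

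Set among peaks of the same region, the 5' UTR peak stood out by rank. It was the 122nd highest of 3744 5' UTR peaks in WT, above 96.6% of them, whose median was 1.28, and the 90th highest of 3790 in the mutant, above 97.6%. The exonic peak was above 59.9% of exonic peaks in WT and 61.5% in the mutant. The 3' UTR peak, the most enriched of the gene in both lists, was near the median of its class in WT, above 51.8% of 13055 peaks, and above 74.8% of 13597 in the mutant. Lists of different length were ranked separately, and no change was read from the ranks.

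**Figure D3:**
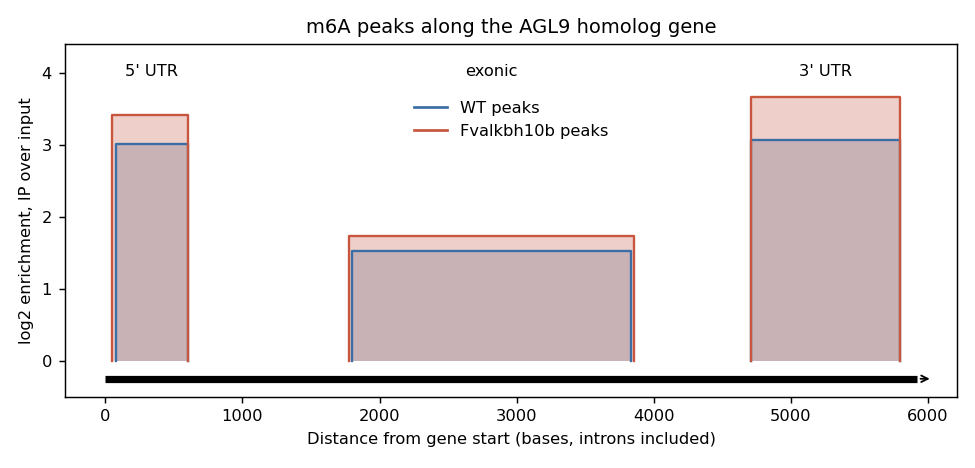
Position and enrichment of the m6A peaks of the AGL9 homolog, with distance from the gene start in bases on the horizontal axis and the authors' log2 enrichment on the vertical axis, for WT and Fvalkbh10b. The 3 peaks coincide in position, and the enrichments are 3.01, 1.52 and 3.06 in WT and 3.41, 1.74 and 3.66 in Fvalkbh10b, from the 5' to the 3' peak.

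**Figure D4:**
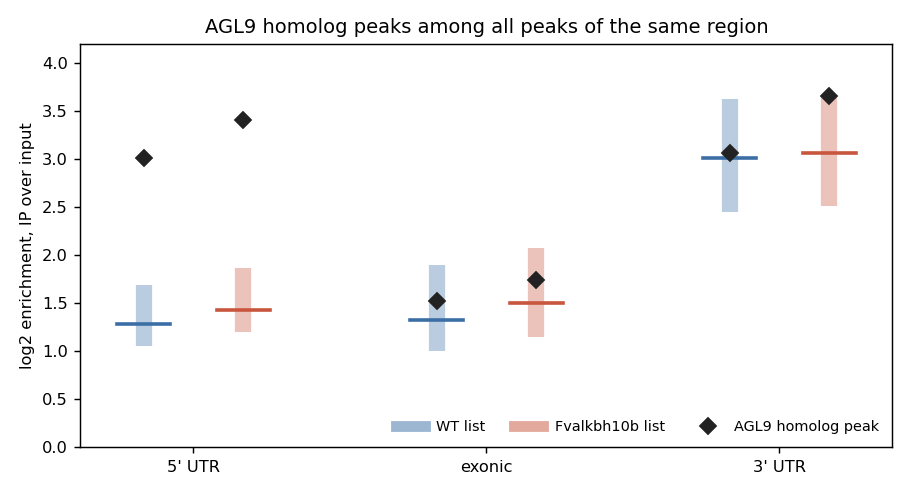
Authors' log2 enrichment of the AGL9 homolog peaks against all peaks of the same region and list, shown by the median and the quartiles. The 5' UTR peak lies above the upper quartile of 1.69 in WT and of 1.87 in Fvalkbh10b, and the exonic peak lies between the quartiles in both.

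All 3 peaks were called higher in the mutant in the authors' deposited table of differential peaks. The log2 changes there were 0.42 for the 5' UTR peak, 0.24 for the exonic peak and 0.60 for the 3' UTR peak, each with an adjusted p listed as 0.00, which is rounded to 2 decimals. Over the whole of the authors' deposited table, 48.7% of 8889 peaks were called higher and 21.9% lower (adjusted p under 0.05). Against peaks called higher in the same region, the median change was 0.58 in the 5' UTR, 0.51 in exons and 0.40 in the 3' UTR, so the 3' UTR peak lay above and the other peaks below those medians. Of the 5316 genes with a called peak, 54 had at least 3 called higher and none lower, the AGL9 homolog among them.

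The RNA and the peaks of a gene are not independent measures here, because the input libraries that give the RNA level are also the denominator of the enrichment. The changes of both are therefore given side by side, and the part of the lower input RNA in the higher enrichment of the AGL9 homolog was not tested. As background for reading them, among genes with a called peak all called peaks were higher in 1041 of 1186 genes with lower RNA (87.8%). The same held in 1189 of 2254 genes with higher RNA (52.8%). Higher peaks were thus usual among genes with lower RNA, and this pairing is not particular to the AGL9 homolog. Of the 54 genes with at least 3 peaks called higher and none lower, RNA was called lower in 18 (33.3%) and higher in 19 (35.2%). Among all 5316 genes with a called peak, RNA was called lower in 1186 and higher in 2254. Of all genes tested, 19.1% were lower and 48.3% higher.

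Other MADS-box genes had 12 differential peaks in 8 genes, with 4 called higher and 6 lower in the authors' deposited table. With the AGL9 homolog, 7 of 15 were higher and 6 lower, beside 48.7% and 21.9% of all peaks. In the authors' deposited table the 3' UTR peak of PMADS 1 was higher by 2.04 log2 units and that of AGAMOUS FvH4_6g37880 by 0.21. For 3' UTR peaks called lower, the authors' deposited table gave -0.79 and -0.29 for CAULIFLOWER A, -0.69 for CAULIFLOWER A-like, -0.25 for transcription factor 6 (FvH4_7g12670), and -0.12 and -0.16 for AGAMOUS FvH4_3g06720.

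For CMB1-like the authors' deposited table gave 0.19 for its 3' UTR peak and 1.12 for a 5' UTR peak, with a further 5' UTR peak at 1.17 whose adjusted p is printed as 0.05 and which was not counted. The third SEPALLATA-type gene, SEPALLATA 1, had a peak in the WT list and 2 in the mutant list, all in the 3' UTR, and none in the table of differential peaks.

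**Figure D5:**
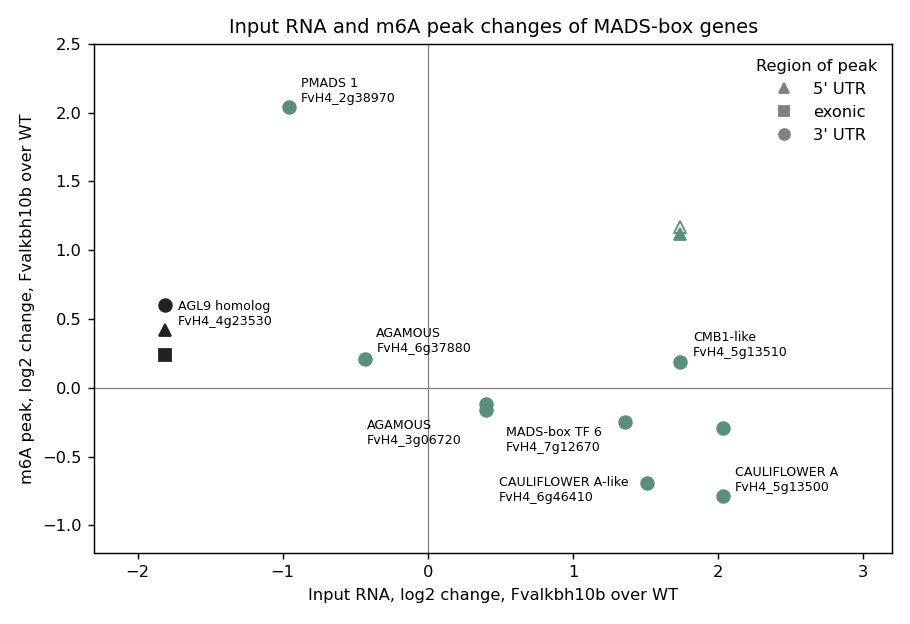
Log2 change of input RNA against the authors' log2 change of each m6A peak, both Fvalkbh10b over WT, for MADS-box genes with a differential peak and a tested RNA level; marker shape gives the region, black marks the AGL9 homolog and a hollow marker a peak not past the authors' adjusted p of 0.05. The AGL9 homolog is farthest to the left at -1.81 with its peaks at 0.24, 0.42 and 0.60, and CMB1-like at 1.74 on the right has its peaks between 0.19 and 1.17.

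Genes of the families that RIN binds in tomato were split in direction by count, while their summed level was lower in the mutant. The sum was 14489 to 14743 FPKM in the WT libraries and 4693 to 4838 FPKM in the mutant libraries. A few abundant genes carried most of this difference. Mean FPKM, WT before mutant, was 2729.7 and 95.9 for pectate lyase 8 (FvH4_4g05760). It was 2035 and 0.87 for an exopolygalacturonase-like gene (FvH4_6g41380), and 1741 and 81.0 for expansin-A10 (FvH4_7g25860). The families held 155 genes, of which 88 were tested, with 40 higher, 39 lower and 9 not passing (limma adjusted p under 0.05), beside 48.3% and 19.1% of all genes. The counts became 35 higher and 41 lower after rescaling, beside 30.8% and 32.2% of all genes on that scale. At 2-fold or more there were 19 higher and 23 lower, beside 14% and 6.49% of all genes tested. Their median log2 change was 0.17, against 0.25 for all genes tested, and -0.09 after rescaling.

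Among the wall-loosening families, the xyloglucan endotransglucosylases, expansins and polygalacturonases had more members lower than higher. The family counts stand beside 48.3% higher and 19.1% lower over all genes tested. Of 13 tested xyloglucan endotransglucosylases, which cut and rejoin hemicellulose, 9 were lower and 4 higher. Of 11 expansins 7 were lower and 3 higher, and of 14 polygalacturonases, which cut pectin, 8 were lower and 4 higher. Pectate lyases had 3 lower and 2 higher of 7, endo-beta-mannanases 1 lower and 2 higher of 4, and beta-galactosidases 5 lower and 8 higher of 13. The summed level was nevertheless lower in the mutant for the beta-galactosidases, at 1207 to 1221 FPKM in WT against 344 to 368. For the endo-beta-mannanases the sum was also lower, at 925 to 977 FPKM against 354 to 379.6. A single gene made up most of the difference in each of these sums, so neither is a family-wide fall. Beta-galactosidase 16 (FvH4_2g27470) averaged 759 FPKM over the WT libraries and 1.07 over the mutant libraries. For the endo-beta-mannanase FvH4_2g39510 these means were 928 and 328. Expansin-A10 (FvH4_7g25860) went from 1741 ± 71.6 to 81.0 ± 2.9 FPKM, a log2 change of -4.41 ± 0.04 (limma adjusted p = 8.00e-13).

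Most lipoxygenases were higher instead, beside 48.3% of all genes tested. Of 8 tested lipoxygenases, which oxidise fatty acids on the way to aroma compounds and jasmonate, 7 were higher and 0 lower (7 and 1 after rescaling), and linoleate 13S-lipoxygenase 2-1 (FvH4_7g00440) went from 351 ± 2.23 to 679.9 ± 19.5 FPKM. Alcohol dehydrogenases had 6 higher and 2 lower of 8, which became 4 higher and 2 lower after rescaling, beside 30.8% and 32.2% of all genes on that scale. The ACC synthases and oxidases of ethylene synthesis had 3 higher and 2 lower of 5. Both tested 9-cis-epoxycarotenoid dioxygenases, which make the precursor of abscisic acid, were lower, and NCED1 (FvH4_3g05440) went from 124 ± 4.05 to 61.8 ± 5.11 FPKM. Of 3 phytoene synthases 1 was higher and 0 lower.

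Several genes had nearly the same profile over the 6 input libraries as the AGL9 homolog. By the root-mean-square distance between log2(FPKM + 1) profiles, each centred on its own mean, the nearest named gene was beta-galactosidase 3 (FvH4_1g12350) at 0.029 log2 units. It stood at 131.13, 133.16 and 137.37 FPKM across the WT libraries, against 39.49, 37.55 and 37.76 FPKM across the mutant libraries. A putative mediator of RNA polymerase II subunit 26 (FvH4_5g04970) followed at 0.039 and plant intracellular Ras-group-related LRR protein 6 (FvH4_3g20490) at 0.042. An OTU domain-containing protein (FvH4_7g06300) and the kinase HT1-like (FvH4_5g05170) were both at 0.05. With 6 libraries in 2 genotypes, the likeness is mainly a like step between WT and mutant.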

How the data were processed

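The deposited expression table holds FPKM per gene and input library, as the authors computed them per the file headers. The authors' own log2 fold changes, p-values and q-values stand beside them in the deposited table. The deposited peak tables hold positions, log2 enrichment (or its log2 change) and p-values by the authors, rounded to 2 decimals, with replicates pooled per genotype. FastQC, HISAT2 and StringTie are named in the submitters' processing notes, without version or role. The sources used here give no build, annotation, strand setting or peak caller.

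No count model was used, since FPKM give no read numbers. Testing covered the 15571 genes whose FPKM averaged 1 or more across the 6 input libraries. Values were taken as log2(FPKM + 1) and fitted on genotype alone with limma (version 3.58.1, R version 4.3.3), using a trended prior variance, and p-values were adjusted by Benjamini-Hochberg over all tested genes; this scale understates changes of low genes. The script was tested on simulated data. Shares and within-library differences were tested by exact two-sided permutation (scipy 1.17.1). Peaks were matched by at least 1 base on the same strand. Of the WT peaks, 3704 start 1 base before their gene and 0 at it, so starts were raised by 1. No per-sample column was left unmapped (0).

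The gene, the lists and the tests were chosen with earlier results of these data known. MADS-box, SEPALLATA-type, target family and marker lists (achene and seed, fruit flesh, green tissue) are word patterns on the gene descriptions; MADS-box subfamilies were assigned from the names. Genes that could be named were the SEPALLATA-type genes, the 6 other MADS-box genes with the highest mean and those with a differential peak. The set also held the leading member of each target family and the 2 nearest genes on each side. It further held the 5 nearest profiles with a mean of at least 5 FPKM. Some leading members of target families were covered only by counts. Other MADS-box genes were named after their values were seen. Alternatives were rescaling to one median, quantile normalization, a pseudocount of 0.1, other filters, a replicate block and leaving out each library. Sequences of the gene and its peaks were not analysed here.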

Additional observations from a re-analysis of the deposited data

How the results depend on the processing

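The fall of the AGL9 homolog kept its direction and call under all 13 alternatives, with log2 changes of -2.09 to -1.78 and limma adjusted p of 1.31e-10 to 8.43e-07; without each library in turn it was -1.82 to -1.78. Its share of MADS-box FPKM differed by -32.4 to -31.4 points without each library, and its lead over CMB1-like and SEPALLATA 1 by -3.63 to -3.47 and by -2.56 to -2.40 log2 units, where the exact permutation p cannot go below 0.2. Same-numbered input libraries of the genotypes deviated from their means with correlations of -0.03 to 0.04, and those with other numbers with -0.05 to 0.02. Of the 6 libraries, 4 correlated best with their own number. This does not settle whether they were paired, and with all these correlations small they were taken to share only a number. With the number as a replicate block the AGL9 homolog fell by 1.81 (limma adjusted p = 1.62e-08), and MADS-box calls were 8 higher and 3 lower as without it. MADS-box differential peaks in the authors' deposited table were 7 higher and 6 lower. Moving the cutoff on their adjusted p to 0.01 kept 6 higher and 3 lower, and all 3 peaks of the AGL9 homolog stayed called. Keeping the cutoff of 0.05 but also asking for 1 log2 unit or more kept 2 higher and 0 lower. Fewer peaks pass a stricter rule. The 2 peaks kept were those of PMADS 1 (2.04) and CMB1-like (1.12). All peaks of the AGL9 homolog, at 0.42, 0.24 and 0.60, fell short of that size. Over all genes, 7527 higher and 2978 lower became 4800 and 5011 after rescaling and 4869 and 4625 after quantile normalization. The AGAMOUS gene FvH4_3g06720 and the alcohol dehydrogenase-like gene FvH4_2g14750 were no longer called after rescaling, FvH4_4g23540 was called lower after rescaling and after quantile normalization, and transcription factor 6 FvH4_7g12680 was called higher without WT replicate 1 (log2 change 0.55, limma adjusted p = 0.0391). The cause was not tested. No value changed sign past the threshold. Peak values rest on pooled replicates, so no library could be left out of them, and with depth unknown no counting error can be given.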

Other observations

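Several MADS-box genes had m6A peaks in the deposited lists although almost none of their RNA was listed in the input libraries. The peaks and their enrichments are the authors' values, and these genes were chosen after their values were seen. An SVP-like gene (FvH4_4g27110), named for a repressor of flowering in Arabidopsis, was listed at 0 FPKM in all WT libraries and at 0.0833 ± 0.0945 FPKM in the mutant (SD, n = 3), with a 3' UTR peak of log2 enrichment 3.23 in the mutant list. An AGL24-like gene (FvH4_4g27440) was listed at 0 in WT and at 0.0267 ± 0.0462 FPKM in the mutant, with a 3' UTR peak of 4.86 in the mutant list. AGL24 (FvH4_5g35401) had 0.0867 ± 0.0473 FPKM in WT against 0.337 ± 0.00577 FPKM in the mutant, with 1 peak in the WT list and 4 in the mutant list, the highest at 5.73. Each of these enrichments is a ratio over an almost empty input, so they are not ranked against peaks of abundant transcripts.

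The SOC1-like gene (FvH4_7g12700), named for an activator of flowering, had 1.66 ± 0.461 FPKM in WT against 0.0267 ± 0.0462 FPKM in the mutant, under the mean needed for a test, and had 3 peaks in the WT list and 0 in the mutant list.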
